A study of Mus musculus with 6 samples.

Results

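Cluster 18 of the deposited annotation is a group of endothelial cells (ECs), the cells that line blood vessels, in liver tumors of mice. Its members were chosen as all cells that the annotation calls endothelial and places in cluster 18, which gave 989 of 11433 ECs and of 58794 annotated cells. The cells came from 3 control mice and 3 stress mice, all wild-type male C57BL/6J mice that carried orthotopic tumors of H22, a murine hepatocellular carcinoma (HCC) cell line, in the liver. Stress mice had gone through chronic unpredictable mild stress, a changing series of mild stressors, and control mice had received the same tumor cells and no stressor. Each mouse gave 1 single-cell library from dissociated liver tumor tissue, and no sort for ECs was named. The mice were 8 weeks old when obtained, and their age when the tissue was taken was not given.

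Blood in the liver enters each lobule at the portal tract, passes through sinusoids lined by fenestrated ECs, and leaves through the central vein. ECs at and near the central vein secrete the Wnt ligands Wnt2 and Wnt9b together with R-spondin 3 (Rspo3), a secreted protein that strengthens Wnt signaling, and these factors maintain the metabolic program of the neighboring hepatocytes. ECs near the portal tract instead carry Notch and ephrin ligands such as Dll4 and Efnb2. In tumors the vessel bed also takes on sprouting "tip" cells and activated ECs that bind leukocytes.

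The library of each mouse held between 134 and 196 cells of cluster 18, with a median of between 3774 and 7119 unique molecular identifiers (UMIs, tags that count each captured RNA molecule once) per cell. The summed UMIs of the cluster lay between 753741 and 1430196 per mouse. Control matrices carry Cell Ranger 9.0.0 in their headers and stress matrices 7.1.0, and the effects of stress and of the counting program cannot be told apart here. Between libraries, 426 of 61374 barcodes were shared, and 14 cells of cluster 18 had a barcode that another library also held, with 0 barcodes shared by 2 cells of the cluster. Levels are given as CPM, the UMIs of a gene in the summed cells of a mouse after all UMIs of these cells are scaled to the same total, with mean ± SD over mice.

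The endothelial label held in the counts. Pecam1 and Cdh5, adhesion proteins of the endothelial junction, had 830 ± 69.7 and 857 ± 98.1 CPM in cluster 18 (SD, n = 6 mice). After each cell was thinned to 1000 UMIs, which left out 10 cells of the cluster, Pecam1 was found in 56.5% of its cells and in 58.0% and 53.2% of the ECs of clusters 2 and 8, the largest EC clusters. In tumor cells thinned in the same way, which stand here for free RNA in the droplets, the share was 0.456%. Tumor cells held more UMIs per cell, so a thinned share may understate the free RNA. Without thinning, Pecam1 was found in 97.1% of the cells of cluster 18, at a median of 5219 UMIs per cell, and in 8.45% of tumor cells, at a median of 28632 UMIs. Of 12 general endothelial genes, 9 were higher in cluster 18 than in the other ECs in all 6 mice, 2 were lower in all 6 mice (Kdr and Cldn5), and 1 was mixed. Against the pooled cells of clusters 2 and 8 alone, 2 of the 12 were higher and 4 lower in all 6 mice, where 7.28% of all genes with a UMI were higher and 6.46% lower. For the whole set of genes with a UMI in either group, 6.40% were higher and 11.2% lower in all 6 mice. The other ECs are here all ECs outside cluster 18 and outside cluster 15, which holds shallow cells with a median of 1212 UMIs. They include clusters 16, 24 and 27, in which 47.3%, 89.1% and 57.5% of cells were called doublets, against 3.94% in cluster 18.

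Cluster 18 stood apart from the other ECs by the secreted Wnt factors of the central vein. All 7 genes listed for pericentral and central vein ECs were higher in cluster 18 than in the other ECs in all 6 mice, and all 7 were also higher there than in the pooled cells of clusters 2 and 8. These differences are descriptions without a test, since the clusters were built from the same genes. Rspo3 had 2668 ± 362 CPM in cluster 18, 153 CPM in cluster 2 and 474 CPM in cluster 8. Its ratio to the other ECs was 12.4, with single mice between 9.49 and 18.6. Wnt9b had 116 ± 38.4 CPM against 8.72 and 20.1 CPM in clusters 2 and 8, and Wnt2 had 262 ± 80.2 CPM against 61.0 and 68.7 CPM. The factor genes were thus high in the same cluster of every mouse, though at levels that varied between mice by more for Wnt9b and Wnt2 than for Rspo3. Cluster 18 made up 8.82% ± 2.16 of the ECs of a mouse and held 52.2% ± 6.15 of their Rspo3 UMIs, 54.5% ± 9.26 of their Wnt9b UMIs and 35.1% ± 4.90 of their Wnt2 UMIs (SD, n = 6).

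The promoters of both Wnt genes, with that of the gene with the highest ratio in cluster 18, Fmo2, are shown because these genes mark the cluster. Each sequence is the 250 bases before the first listed start in the RefSeq table of promoters (GRCm38.p6), 5′ to 3′ on the strand of the gene, and the table gave no entry for Rspo3. Capitals mark AGATAA or its reverse TTATCT, a core motif of GATA factors, and TAATTA, a core motif of homeodomain factors, searched on both strands.
Wnt9b (chr11:103749822-103750071, minus strand): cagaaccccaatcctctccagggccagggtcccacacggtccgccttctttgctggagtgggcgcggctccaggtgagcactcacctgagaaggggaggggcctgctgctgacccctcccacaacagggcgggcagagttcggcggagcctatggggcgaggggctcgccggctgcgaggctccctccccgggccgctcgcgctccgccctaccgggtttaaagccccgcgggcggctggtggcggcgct
Wnt2 (chr6:18030446-18030695, minus strand): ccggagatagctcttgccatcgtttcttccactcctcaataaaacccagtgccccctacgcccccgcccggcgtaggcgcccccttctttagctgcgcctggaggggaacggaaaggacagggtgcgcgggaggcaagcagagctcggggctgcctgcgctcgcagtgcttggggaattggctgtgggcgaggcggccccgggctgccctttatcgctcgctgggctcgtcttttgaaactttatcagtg
Fmo2 (chr1:162898759-162899008, minus strand): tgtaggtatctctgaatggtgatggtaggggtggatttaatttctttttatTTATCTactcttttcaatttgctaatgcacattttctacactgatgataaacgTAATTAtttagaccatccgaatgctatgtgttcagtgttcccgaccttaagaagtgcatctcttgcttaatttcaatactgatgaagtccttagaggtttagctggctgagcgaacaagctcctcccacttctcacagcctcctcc

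The Fmo2 window held TTATCT and TAATTA, which began 199 and 146 bases before the start, and the windows of Wnt9b and Wnt2 held neither. Only these exact strings were searched. Related strings with a GATA core, such as AGATAG in the Wnt2 window, were not counted, so sites for GATA factors are not excluded there. Over the first listed windows of 27025 genes, 10.3% held AGATAA or its reverse and 4.90% held TAATTA. Of the 30 genes with the highest ratio in cluster 18, 21 had an entry, and Fmo2 was the only one of these with either motif. The Wnt9b and Wnt2 windows were rich in G and C, at 72.0% and 63.6%, against 39.6% for Fmo2.

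**Figure D1:**
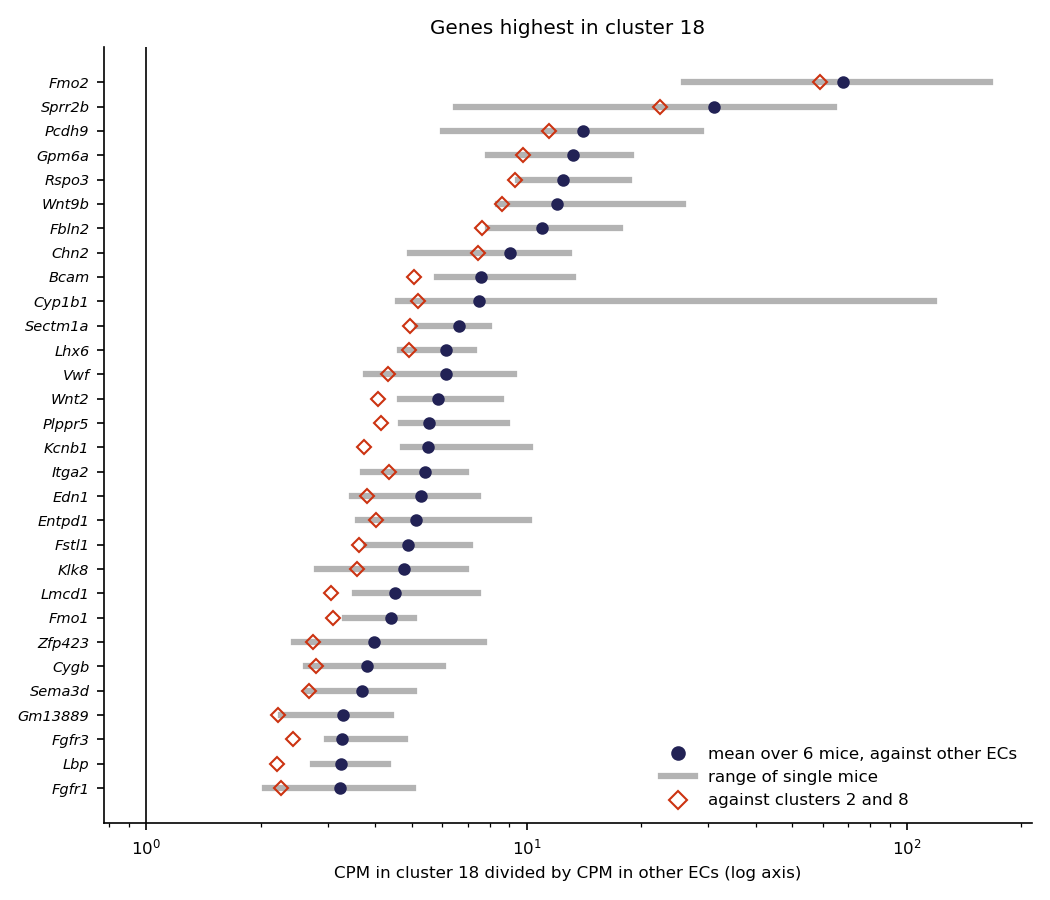
CPM in cluster 18 divided by CPM in other ECs, on a log axis, for the 30 genes with the highest ratio. Filled points are means over 6 mice and grey lines the range of single mice. Open diamonds are the ratio to clusters 2 and 8, where Fmo2 has 59.1 and Rspo3 9.30. The genes were chosen to be higher in all 6 mice, so all grey lines lie above a ratio of 1.

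Beyond the Wnt factors, the genes that led cluster 18 fell into several roles. Among 4344 genes with at least 50 CPM in cluster 18 or the other ECs, 94 were at least 2-fold higher and 97 at least 2-fold lower in cluster 18 with the same order in all 6 mice. Without doublets and tumor-marker cells 62 were higher and 77 lower, with cells thinned to 1000 UMIs 67 and 80, and against clusters 2 and 8 alone 69 and 95. Enzymes of the flavin monooxygenase family were among the 30 with the highest ratio. Fmo2 had 155 ± 98.6 CPM against 2.29 CPM in the other ECs, a ratio of 67.8 with single mice between 25.9 and 165, and Fmo1 had 213 ± 72.0 against 48.6 CPM. Fmo2 was uneven within the cluster, with a UMI in 16.9% of cells without thinning and 10.8% after it. Sprr2b, a small proline-rich protein of barrier epithelia, varied most between mice among these 30, with 8.31, 551 and 21.1 CPM in the control mice and 3.20, 33.2 and 231 CPM in the stress mice. Its mean over mice thus rested mainly on control mouse 2 and stress mouse 3.

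Some genes of veins and of blood clotting were high as well. Of 9 genes listed for veins and leukocyte adhesion, 5 were higher and 0 lower than in the other ECs in all 6 mice, and 4 were higher and 3 lower than in the pooled cells of clusters 2 and 8. Vwf, the platelet-binding protein of larger vessels, had 146 ± 51.6 CPM against 35.3 and 31.3 CPM in clusters 2 and 8. Thbd, the thrombin receptor that limits clotting, had 1456 ± 543 CPM against 581 and 835 CPM. Entpd1, an ectoenzyme that removes extracellular ATP and ADP, had 336 ± 51.3 CPM against 79.2 and 89.8 CPM. Edn1, which encodes the vasoconstrictor endothelin-1, had 170 ± 116 CPM against 25.1 and 71.3 CPM. The venous transcription factor Nr2f2 had 1004 ± 165 CPM and the venous receptor Ephb4 237 ± 49.6 CPM, each higher than in both clusters in all 6 mice. Lhx6, a homeodomain transcription factor, had 82.4 ± 21.1 CPM against 13.4 and 21.5 CPM. Matrix and adhesion genes among the leading genes were Fbln2, Fstl1, Bcam and Itga2. Fbln2 had 92.8 CPM against 8.44 CPM in the other ECs, Fstl1 184 against 37.7 CPM and Itga2 51.4 against 9.50 CPM.

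Genes of the opposite end of the lobule were lower than in the other ECs, but not all were scarce. All 6 genes listed for periportal ECs were lower in cluster 18 than in the other ECs in all 6 mice. Their sum was 783 to 1517 CPM in control and 1260 to 1520 CPM in stress mice. The pooled cells of clusters 2 and 8 had 2950 to 3576 CPM. Msr1, a scavenger receptor, had 27.6 ± 15.5 CPM against 316 and 202 CPM in clusters 2 and 8. Dll4, a Notch ligand, had 13.9 ± 7.54 CPM against 108 and 79.2 CPM, and Efnb2, an ephrin ligand, 40.5 ± 19.3 CPM against 181 and 166 CPM. Of the 12 tip cell genes, 6 were lower in all 6 mice, among them Esm1 with 0.985 CPM against 46.9 and 38.6 CPM and Angpt2 with 5.10 against 39.2 and 36.5 CPM. The other direction held for 2 of the 12, Mcam and Flt1, which were higher than in the other ECs in all 6 mice. Against clusters 2 and 8 these were close, with 245 ± 21.0 CPM of Mcam against 280.5 and 255 CPM and 938 ± 173 CPM of Flt1 against 928 and 926 CPM. Cldn5, a tight junction protein, had 37.9 ± 14.3 CPM against 216 and 139 CPM. Kdr, the main VEGF receptor, had 626 ± 160 CPM against 1139 and 1046 CPM, and its ligand gene Vegfc had 19.1 ± 14.5 CPM against 83.3 and 119 CPM.

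Sinusoidal genes were lower in cluster 18 than in clusters 2 and 8 but present. Of 14 such genes, 12 were lower than in the pooled cells of clusters 2 and 8 in all 6 mice and 0 were higher. Against all other ECs, 5 of the 14 were lower and 1, Gata4, was higher in all 6 mice. Stab2, a scavenger receptor for hyaluronan, had 677 ± 318 CPM against 1965 and 1420 CPM in clusters 2 and 8. It was found in 34.2% of thinned cells of cluster 18, 75.8% and 64.7% of those of clusters 2 and 8 and 0.253% of tumor cells. Without thinning Stab2 was found in 57.2% of the cells of cluster 18 and 8.55% of tumor cells. Clec4g, a sinusoidal lectin, had 810 ± 307 CPM against 1766 and 1307 CPM. Lyve1, another hyaluronan receptor, had 859 ± 739 CPM and was higher than in the other ECs in 4 of 6 mice. Gata4, a transcription factor of the liver endothelium, had 532 ± 125 CPM against 593 and 449 CPM.

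Cluster 8 differed from cluster 18 in genes of leukocyte adhesion and of the immediate-early response. Selp and Vcam1, which capture leukocytes, had 830 ± 257 and 666 ± 121 CPM in cluster 18, above cluster 2 (535 and 473 CPM) and below cluster 8 (2600 and 2071 CPM) in all 6 mice. Fos and Egr1, transcription factors that rise within minutes of cell stimulation, had 513 ± 251 and 271 ± 153 CPM in cluster 18 against 259 and 134 CPM in cluster 2 and 1838 and 1055 CPM in cluster 8. Cluster 18 thus lay between the larger clusters for all 4 genes. The complement genes C1qa and C1qb, best known from macrophages, had 442 ± 132 and 430 ± 66.8 CPM in cluster 18, while the macrophage genes Adgre1 and Csf1r had 1.26 and 2.44 CPM. C1qb was higher than in clusters 2 and 8 in all 6 mice, at 224 and 201 CPM there.

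Further lists held genes of both directions. Of 13 genes of TGF-beta and BMP signaling, 7 were higher and 1 (Bmp6) lower than in the other ECs in all 6 mice, and 5 were higher and 3 lower than in the pooled cells of clusters 2 and 8. The receptor gene Tgfbr2 had 692 ± 275 CPM against 386 and 410 CPM, the target Id3 had 1086 ± 105 CPM against 834 and 764 CPM, and the ligand Bmp2, which controls iron uptake through hepatocytes, had 761 ± 224 CPM against 1129 and 1721 CPM. Tek, the angiopoietin receptor, had 565 ± 89.5 CPM against 466 and 390 CPM. Of 10 capillary genes, 4 were higher and 3 lower in all 6 mice, with the same counts against either reference. The water channel Aqp1 had 2765 ± 668 CPM against 1932 and 1865 CPM and Plvap, the diaphragm protein of endothelial fenestrae, 525 ± 81.0 CPM against 367 and 301 CPM, while the fatty acid carrier Cd36 was low at 163 ± 84.5 CPM against 585 and 454 CPM. Of 10 arterial genes, 2 were higher and 5 lower than in the other ECs in all 6 mice, and 1 was higher and 6 lower than in the pooled cells of clusters 2 and 8. The connexin gene Gja4 had 445 ± 94.3 CPM against 312 and 281 CPM, and Gja5 had 0 UMIs in cluster 18.

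Within cluster 18 the markers varied with Rspo3. At 1000 UMIs per cell, 17.3% of the cells had no Rspo3 UMI, 30.3% had 1 to 2 and 52.4% had 3 or more. From the cells without Rspo3 to those with 3 or more, Fmo2 went from 38.7 to 362 CPM, Edn1 from 79.8 to 355 CPM, Entpd1 from 204 to 511 CPM and Wnt9b from 84.7 to 176 CPM, each higher in all 6 mice. Stab2 went the other way, from 1079 to 463 CPM, and Clec4g from 1087 to 689 CPM, each lower in all 6 mice. The periportal gene Adam23 also fell, from 1188 to 511 CPM, and was lower in all 6 mice. Thbd had 1589 and 1622 CPM and was higher at 3 or more Rspo3 UMIs in 2 of 6 mice. These values describe the cells and carry no test, since the cells share their libraries and their clustering, and the smallest bin of a mouse held 16 cells. Before thinning, cells without Rspo3 had a median of 6324 UMIs and those with 3 or more Rspo3 UMIs had 4808. Called doublets and tumor-marker cells were kept in these bins.

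**Figure D2:**
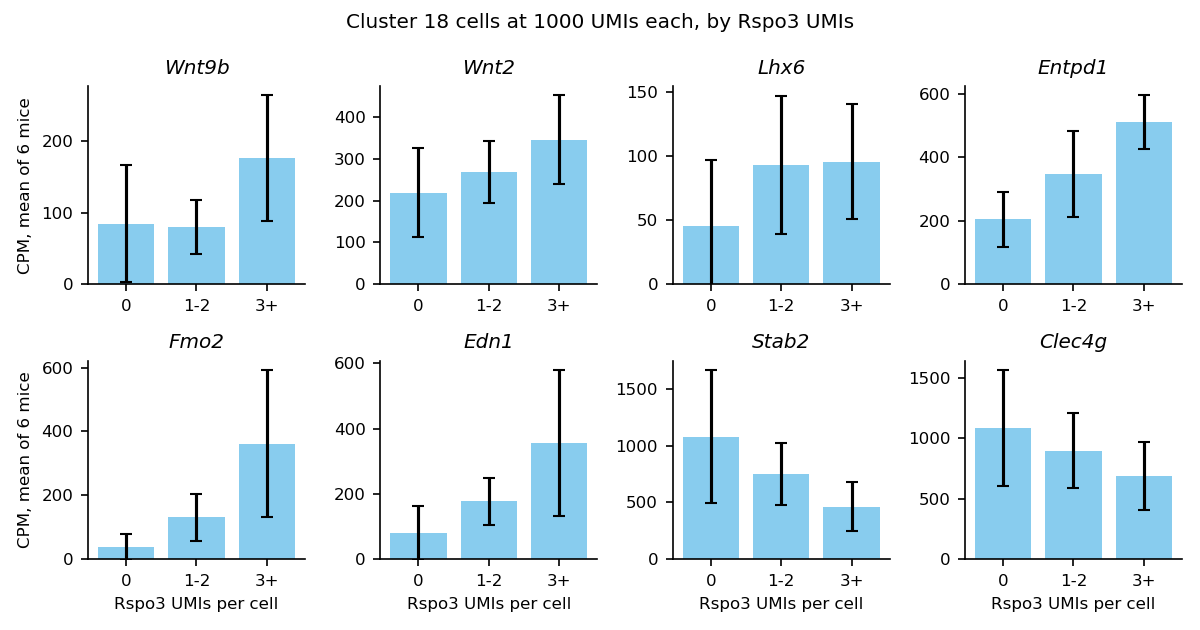
CPM of 8 genes in cells of cluster 18 thinned to 1000 UMIs, by the number of Rspo3 UMIs in the cell; bars are means and lines SD over 6 mice. Fmo2, Edn1 and Entpd1 are highest and Stab2 and Clec4g lowest in cells with 3 or more Rspo3 UMIs.

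Stress and control mice were compared first by the number of these cells. Cluster 18 made up 9.99%, 6.45% and 8.85% of the ECs of control mice 1, 2 and 3, and 12.4%, 6.97% and 8.29% of those of stress mice 1, 2 and 3. The widest 95% interval (exact Clopper-Pearson, counting error only) ran from 10.8% to 14.1%, for stress mouse 1. The groups overlapped, and the difference of 0.778 percentage points was within the spread between mice (two-sided exact permutation test, p = 0.8, where 3 against 3 mice cannot give a p below 0.1). Control mice had a median of 3774, 5262 and 5180 UMIs per cell of the cluster. The medians of stress mice were 5965, 5225 and 7119 UMIs, a difference of 1364 UMIs between the group means, and the groups overlapped (p = 0.2 by an exact permutation test).

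The share of cells with tumor RNA differed between the groups, and the main stress results are also given without these cells. Of the 989 cells, 26 held 3 or more UMIs of the tumor marker list (Krt8, Krt18, Cldn6, Epcam and Afp), and 21 of these were also called doublets. They made up 4.08%, 3.68% and 4.48% of cluster 18 among controls. Among stress mice the shares were 1.04%, 1.47% and 1.55%, so the groups did not overlap (p = 0.1 by an exact permutation test). With the called doublets they came to 44 cells, which were large and carried 19.8% to 22.1% of the UMIs of the cluster in control mice and 7.27% to 8.89% in stress mice. The summed tumor markers had 92.8 to 142 CPM in control mice and 27.9 to 75.2 CPM in stress mice. Of the 5 markers, 4 were above 0 in every mouse, and Krt8 was at 0 in 4 of the 6 mice. In clusters 2 and 8 the share of tumor-marker cells was 0.0948% to 1.21% and overlapped between the groups (exact permutation test, p = 1).

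Summed per mouse, 87 of 8529 genes differed between stress and control in cluster 18, 1.02% of those tested (edgeR quasi-likelihood test, Benjamini-Hochberg adjusted p under 0.05). Of these 16 (0.188% of those tested) were higher and 71 (0.832%) lower in stress mice, and 1467 genes (17.2%) had an unadjusted p under 0.05. Of the 71 lower genes, 70 had a higher CPM in tumor cells than in ECs of clusters 2 and 8, against 41.0% of all genes tested. Among the 16 higher genes this held for 3. When the 44 cells were left out, a choice made after the data were seen, 19 of 7822 genes remained past the threshold, 0.243%, of which 9 were higher and 10 lower, and all 19 were also in the first list with the same direction. Of the 71 lower genes, 61 could still be tested, 60 of them kept a negative sign, and their median log2 fold change was -0.84 in place of -1.20 with all cells. The count moved with single mice, to 27, 185 and 11 genes without control mice 1, 2 and 3 and to 54, 15 and 12 without stress mice 1, 2 and 3. In the other ECs of the same mice 27 of 13886 genes passed (0.194%), in cluster 2 alone 22 of 11229 (0.196%) and in cluster 8 alone 29 of 10415 (0.278%).

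**Figure D3:**
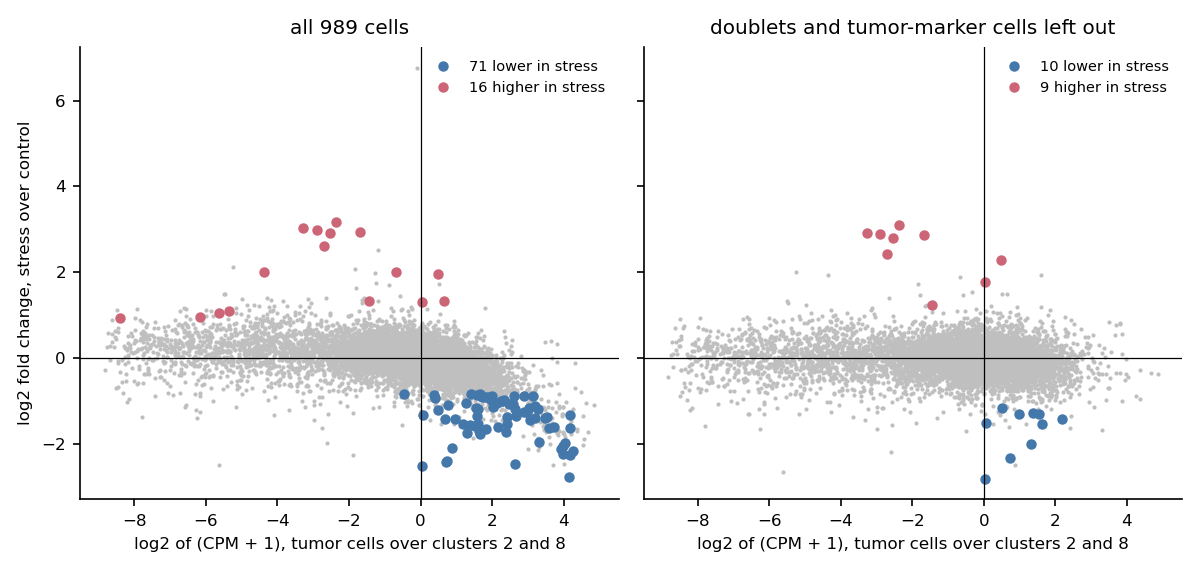
Log2 fold change of stress over control in cluster 18 against the log2 ratio of (CPM + 1) in tumor cells to that in clusters 2 and 8, for each gene tested, with all 989 cells (left) and with 44 doublets and tumor-marker cells left out (right). Colored points passed the threshold: 71 lower and 16 higher genes on the left, 10 and 9 on the right; nearly all lower genes lie to the right of 0.

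Some of the lower genes had a high CPM in tumor cells. Hmga2, a chromatin protein of embryonic and tumor cells, had 228, 251 and 250 CPM in control mice and 80.0, 29.2 and 55.2 CPM in stress mice, while tumor cells had 1032 CPM and clusters 2 and 8 had 66.7 and 64.8 CPM. Its log2 fold change was -2.13 ± 0.28 (SE, edgeR adjusted p = 0.0138) and -0.50 (adjusted p = 0.498) without the 44 cells, and its call was also lost without control mouse 3 or stress mouse 3. Xist, the RNA that silences an X chromosome in female cells, had 368 to 480 CPM in control and 73.0 to 158 CPM in stress mice, although the mice were male. Tumor cells had 1697 CPM of Xist, and its log2 fold change went from -1.98 to -0.45 without the 44 cells. S100a6, a calcium-binding protein, went from -2.16 to -0.88. Slc39a4, Nav3, Tiam2, Efna5 and Syce2 had log2 fold changes from -2.77 to -2.05 with all cells and were too low to be tested without the 44 cells. The source of the RNA of these genes was not tested.

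Lower genes that passed with and without those cells were Plxdc2, Ctla4, Snhg3, Wdr89, Gm2000, Gm53028, Rpl9-ps6, Rps27rt and 2 genes known only by Ensembl identifiers. All 10 had a higher CPM in tumor cells than in ECs of clusters 2 and 8, against 38.5% of the genes tested without the 44 cells. When only the 26 tumor-marker cells were left out, Plxdc2, Ctla4 and Gm53028 did not pass. Plxdc2, a membrane protein found on tumor vessels, had 106, 70.2 and 83.3 CPM in control mice and 9.60, 31.8 and 9.79 CPM in stress mice. The groups did not overlap, as held for each of the 71 lower genes and for 23.7% of all genes tested. Its log2 fold change was -2.50 ± 0.39 (edgeR adjusted p = 0.0251), or -2.80 (adjusted p = 0.00901) without the 44 cells. Ctla4, best known as an inhibitory receptor of T cells, had 52.2, 53.5 and 29.3 CPM in control mice and 17.6, 14.6 and 9.09 CPM in stress mice. Its log2 fold change was -1.74 (edgeR adjusted p = 0.0453), or -2.01 (adjusted p = 0.0427) without the 44 cells. When 1 mouse was left out, the call of Plxdc2 was lost without control mice 1 and 3 and stress mice 1 and 3, and that of Ctla4 was lost in all 6 cases. With the 44 cells left out too, Plxdc2 lost its call without control mice 1 and 3 and stress mouse 3, Ctla4 without control mouse 1 and each of the 3 stress mice, and Gm53028 without each mouse other than control mouse 2. The summed list of T and NK cell genes had 0 to 64.2 CPM in control mice and 4.195 to 19.9 CPM in stress mice, which overlapped, and its part in the Ctla4 values was not tested. Several of the others, such as Rpl9-ps6, Rps27rt and Gm2000, are copies of ribosomal protein genes, whose reads can be split between near-identical genes, so their values are uncertain.

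A group of 6 genes was higher in stress mice. Cmss1, Cdk8, Lars2, Camk1d, Gphn and Gm19951, listed together because they move as a group in these data, all passed the test, with log2 fold changes from 2.605 to 3.17 and from 2.44 to 3.11 without the 44 cells. Lars2, the mitochondrial leucyl-tRNA synthetase, had 464, 401 and 440 CPM in control mice and 3633, 4231 and 2697 CPM under stress (log2 fold change 2.996 ± 0.207, edgeR adjusted p = 0.000267). The log2 fold changes of the 6 genes in the other ECs lay between 2.46 and 2.96. The list was made from these samples and is not independent evidence of its direction, and the counting version moves with the groups. The mitochondrial genes mt-Atp8 and mt-Nd4l rose as well, by 1.95 and 1.34 on the log2 scale. Without the 44 cells mt-Atp8 had 2.28 (edgeR adjusted p = 0.00878), while mt-Nd4l had 1.49 and no longer passed (adjusted p = 0.0562). The call of mt-Atp8 was lost without control mouse 3 and stress mice 2 and 3, and that of mt-Nd4l without these or control mouse 1. With all cells, the 6 genes of the group above kept their calls without each mouse, while without the 44 cells Gm19951 lost its call without control mouse 1 or stress mouse 2.

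Genes of the circadian clock changed in opposite directions, a group chosen after its values were seen. Nr1d1 and Nr1d2, which encode the repressors REV-ERB alpha and beta, rose by 2.01 ± 0.35 (edgeR adjusted p = 0.0358) and 1.33 ± 0.18 (adjusted p = 0.0138) on the log2 scale. Dbp, a clock output factor, rose by 2.02 ± 0.35 (adjusted p = 0.0355). Bmal1, the activator that Nr1d1 represses, had 20.2, 40.4 and 36.4 CPM in control mice and 10.4, 5.31 and 6.29 CPM under stress, a log2 fold change of -2.10 ± 0.37 (edgeR adjusted p = 0.0381). Nr1d1 had 17.8, 14.3 and 9.38 CPM in control mice and 34.4, 65.0 and 71.3 CPM in stress mice. Neither gene overlapped between the groups, as held for each of the 71 lower and 16 higher genes and for 23.7% of all genes tested. Of 12 clock genes in all, these 4 passed the threshold, against 1.02% of all genes tested, and since the group was chosen for such changes nothing is read from this count. The log2 fold changes of the other 8 were 1.64 for Tef, 1.01 for Per3, -1.22 for Nfil3, -0.38 for Per1, 0.59 for Per2, -0.79 for Cry1, 0.31 for Cry2 and 0.09 for Clock. The calls of Nr1d1 and Dbp were lost without control mice 1 and 3 and stress mice 2 and 3, that of Nr1d2 without control mouse 3 and stress mice 2 and 3, and that of Bmal1 without control mice 2 and 3 and stress mice 2 and 3. The time of day at which tissue was taken was not given in the sources, and its part in these values was not tested. Without the 44 cells Nr1d2 passed, but it did not when only the 26 tumor-marker cells were left out, nor without the 44 cells and any mouse other than control mouse 2. Without the 44 cells Nr1d1 (1.89, adjusted p = 0.0665), Dbp (1.94, adjusted p = 0.0799) and Bmal1 (-2.49, adjusted p = 0.0841) did not pass. In clusters 2 and 8 the log2 fold changes of Nr1d1 were 1.72 and 1.97 and those of Bmal1 -1.89 and -2.02.

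**Figure D4:**
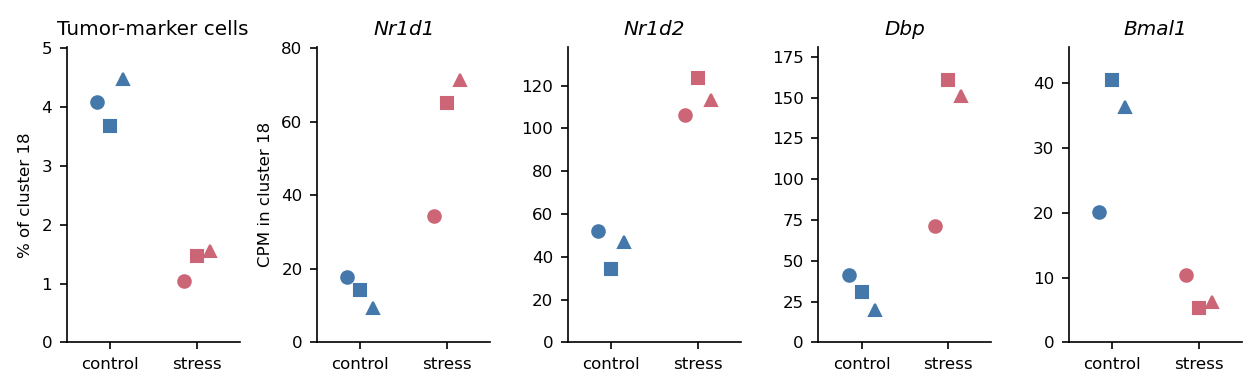
Share of cluster 18 cells with 3 or more tumor marker UMIs (percent) and CPM of 4 clock genes in cluster 18, for each of 3 control (blue) and 3 stress (red) mice. Control mice lie above stress mice for tumor-marker cells and Bmal1, and below them for Nr1d1, Nr1d2 and Dbp. The 4 clock genes were chosen after their values were seen, and the groups did not overlap for 23.7% of all genes tested.

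The genes listed for the central vein did not pass the test in the first analysis, though 2 of them did under other settings. Of the 7 central vein genes 0 passed by edgeR with its filter on low counts. In that test 1 of the 7 had an unadjusted p under 0.05, where 17.2% of all genes tested did. Their median log2 fold change was 0.31, or 0.17 without the 44 cells, against -0.00276 over all genes tested. The 12 general endothelial genes also had a median of 0.31 (0.12 without the 44 cells), and the 13 sinusoidal genes tested had 0.40. Rspo3 had 2416, 2481 and 2197 CPM in control mice and 2781, 3022 and 3111 CPM in stress mice. The groups did not overlap, as held for 23.7% of all genes tested, and the log2 fold change was 0.31 ± 0.15 (edgeR adjusted p = 0.337), or 0.15 (adjusted p = 0.804) without the 44 cells. Kit, a receptor tyrosine kinase listed for central vein ECs, had 427, 528 and 391 CPM among controls and 871, 941 and 725 CPM under stress. It set the cluster apart only weakly, with 44.7% of thinned cells of cluster 18 against 36.5% and 30.7% of those of clusters 2 and 8. Its log2 fold change was 0.89 ± 0.18 (edgeR adjusted p = 0.0528), or 0.67 (adjusted p = 0.303) without the 44 cells. Kit passed by DESeq2, by edgeR with no filter on low counts and without control mouse 2 (log2 fold change 1.03). Cdh13, an adhesion protein of the cadherin family, had 274, 699 and 285 CPM among controls and 541, 999 and 668 CPM under stress, which overlapped through control mouse 2. Its log2 fold change was 0.79 ± 0.37 (edgeR adjusted p = 0.308), or 0.70 without the 44 cells, and without control mouse 2 it was 1.37 and passed (adjusted p = 0.0319), as it did with no filter on low counts (edgeR adjusted p = 0.0196). Wnt2 had a log2 fold change of 0.38 ± 0.26 and Wnt9b of -0.03 ± 0.31, or 0.20 and -0.26 without the 44 cells, and neither passed.

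The study concerns the junction protein Jam2 of ECs and its partner F11r in contacts of ECs with macrophages, and both were measured in cluster 18. The F11r values here are those of ECs, not of macrophages. By RT-qPCR the paper reports more Jam2 mRNA in ECs isolated from stressed mice. That measure covers the isolated ECs together, so the values of this cluster do not test it. Jam2 was higher in cluster 18 (1354 ± 332 CPM) than in clusters 2 and 8 (892 and 768 CPM) in all 6 mice. It had 1293, 859 and 1382 CPM in control mice and 1903, 1333 and 1356 CPM under stress, which overlapped, with a log2 fold change of 0.36 ± 0.23 (edgeR adjusted p = 0.461). F11r had 178, 158 and 192 CPM among controls and 227, 202 and 231 CPM under stress, a log2 fold change of 0.30 ± 0.15 (edgeR adjusted p = 0.344). Cdh5 had -0.09 ± 0.17 and Pecam1 0.06 ± 0.16 on that scale, neither past the threshold. Without the 44 cells the values were 0.17 for Jam2, 0.17 for F11r, -0.28 for Cdh5 and -0.13 for Pecam1, which thus changed sign, and none passed.

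**Figure D5:**
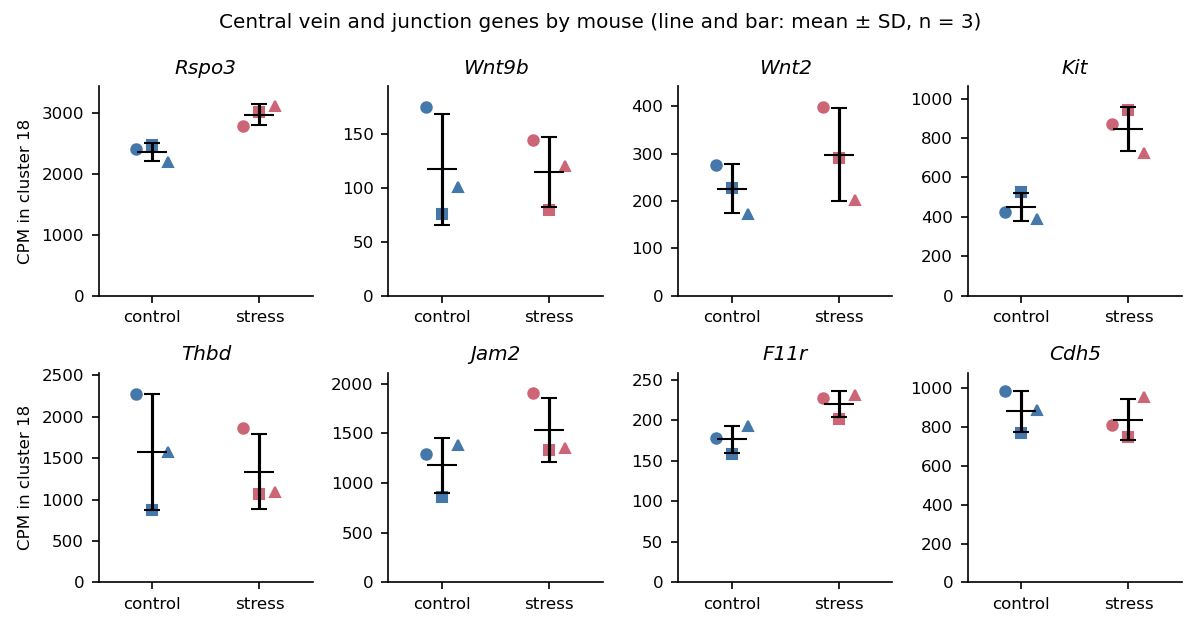
CPM in cluster 18 of 5 central vein genes and of the junction genes Jam2, F11r and Cdh5, by mouse, for 3 control (blue) and 3 stress (red) mice; black marks are mean and SD. Rspo3, Kit and F11r do not overlap between the groups, as held for 23.7% of all genes tested. None of the 8 genes passed the test in the first analysis.

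Of the other fixed groups, the 10 immediate-early genes all had a negative log2 fold change, with a median of -0.72, and 7 had an unadjusted p under 0.05 (17.2% of all genes did), but 0 passed the edgeR threshold after adjustment. Without the 44 cells 9 of the 10 were negative, the median was -0.71, and 6 had an unadjusted p under 0.05 (11.1% of all genes). Of 13 sinusoidal genes tested, 12 had a positive and 1 a negative log2 fold change, with a median of 0.40 (0.22 without the 44 cells), and 0 passed. The 8 cell cycle genes tested had a median of -0.91 with all cells, while the 4 that could be tested without the 44 cells had -0.03. The 9 hypoxia and glycolysis genes tested were all negative, with a median of -0.50. By edgeR 4 had an unadjusted p under 0.05 (17.2% of all genes did), while 0 passed. Their list summed to 1188 to 1472 CPM in control and 900 to 950 CPM in stress mice, and to 999 to 1190 and 782 to 922 CPM without the 44 cells. Without these cells 6 of 8 were negative with a median of -0.33, and 1 had an unadjusted p under 0.05 (11.1% of all genes). The capillary list had a median of -0.53 with 7 of 9 negative, the angiopoietin-Tie list 0.36 (0.19 without the 44 cells) with 3 of 3 positive, and the MHC class II list 0.59 with 4 of 4 positive, but -0.30 over the 2 genes that could be tested without the 44 cells. The Notch, VEGF, TGF-beta and BMP, glucocorticoid response and interferon-stimulated lists had medians between -0.33 and 0.25. Of the 12 general endothelial genes 9 were positive and 7 had an unadjusted p under 0.05. Without the 44 cells 5 were negative and 3 had an unadjusted p under 0.05. Their sums were 7117 to 8517 CPM in control and 9226 to 10158 CPM in stress mice. Without the 44 cells these sums were 8446 to 10181 and 9675 to 10861 CPM, which overlapped. In none of these lists did a gene pass by edgeR.

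The stress change of cluster 18 was then set against that of the other ECs of the same mice. Of 13209 genes, 20 differed by the interaction test (0.151%, edgeR adjusted p under 0.05, mouse as a term), all with a lower stress change in cluster 18. Without doublets and tumor-marker cells the test gave 12 genes, 6 with a higher and 6 with a lower stress change there. The 20 genes include Xist, Hmga2, S100a6, Tiam2 and Efna5 (log2 differences from -1.40 to -1.62), which are high in tumor cells. With clusters 2 and 8 alone as the other ECs, 3 genes differed, and with the 44 cells and their like in clusters 2 and 8 also left out, 0 differed by edgeR, where 532 genes had an unadjusted p under 0.05. The count of 20 became 36, 33 and 0 without control mice 1, 2 and 3 and 29, 9 and 81 without stress mice 1, 2 and 3. The difference of the stress change was 0.31 ± 0.20 for Rspo3 (edgeR adjusted p = 0.929), 0.11 ± 0.16 for Kit (adjusted p = 0.990) and 0.20 ± 0.16 for Jam2 (adjusted p = 0.959), so a stress change particular to cluster 18 was not shown for these genes.

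Markers of other cell types were summed in cluster 18 as well. Of the 989 cells, 584 held 3 or more UMIs of the list for monocytes and macrophages, which summed to 754 to 863 CPM in control and 857 to 1284 CPM in stress mice and rested mainly on C1qa and C1qb. Without these 2 genes, 9 cells held 3 or more. The platelet list reached 3 or more UMIs in 120 cells, 12.1%, against 15.9% of clusters 2 and 8, and summed to 116 to 149 CPM in control and 107 to 244 CPM in stress mice. Nearly all of it was Itga2b, at 106 to 238 CPM, while Pf4 had at most 23.2 CPM and Gp9 was at 0. The hepatocyte list summed to 4.76 to 38.0 CPM per mouse and the list for stellate cells, fibroblasts and mural cells to 0 to 67.7 CPM. The B cell list was at 0 to 2.80 CPM and the red cell list at 0.699 to 6.63 CPM, where clusters 2 and 8 had 5.68 to 858 CPM. The neutrophil list was highest in stress mouse 3, at 169 CPM, against 0.80 to 57.5 CPM in the other mice, and its part in the results was not tested. Cells with 3 or more UMIs of Prox1, Pdpn, Ccl21a, Mmrn1 and Reln, markers of lymphatic ECs, numbered 4, with 2 each in control mice 1 and 2.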

How the data were processed

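Raw UMI counts per gene and cell of 6 libraries, 1 per mouse, were deposited by the authors without normalization, with a table of the mouse, cluster and cell type of each annotated cell. Per the file headers, counts were made with Cell Ranger 9.0.0 (control) or 7.1.0 (stress), and the labels name mm10 and Seurat. The annotated cells held at most 20.0% mitochondrial counts and at least 209 genes. Clusters were used as annotated. Doublets were called per library with Scrublet in scanpy 1.11.5 and kept in the first analysis. The paper states that doublets had already been removed with Scrublet, so these calls are a further pass over the annotated cells.

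Sums of counts per mouse entered edgeR 4.0.16 under R 4.3.3 (low genes removed by filterByExpr, TMM scaling, quasi-likelihood, Benjamini-Hochberg, threshold 0.05). The stress test used cluster 18 only, and the interaction test had mouse as a term. DESeq2 1.42.0 was an alternative. The SE is the log2 fold change over the root of the quasi-likelihood F. Thinning drew 1000 UMIs per cell. The edgeR and DESeq2 steps were tested on simulated data. The 3 mice per group limit the precision, and p-values measure the spread between these mice.

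The members, the 33 gene lists and the tests were chosen with earlier results of these data known. Named genes were those of the lists, the 30 highest and 15 lowest ratios of cluster 18 to the other ECs (at least 50 CPM, same order in all 6 mice), up to 15 changed genes per direction with the largest change among those whose groups do not overlap, up to 5 per direction of the interaction test, and 4 genes of the study. Clock genes, and changed genes outside this rule such as Snhg3 and Wdr89, were named after their values were seen. Same-numbered mice are not said to be paired, and their deviations correlated by 0.409, 0.318 and -0.105, so the numbers were not used as a block except as an alternative. Among the genes past the threshold, 1 was left out of the text for reasons unrelated to its values.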

Additional observations from a re-analysis of the deposited data

Results flagged for a closer look

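The stress change differed between cluster 18 and the other ECs by the interaction test for 20 genes. The 5 with the largest difference were Ccl21a, Mmrn1, Fhod3, Cdk14 and Ptpn22. Ccl21a, a chemokine of lymphatic ECs, had 18, 69 and 1 UMIs in cluster 18 of the control mice and 0 in each stress mouse, and Mmrn1 had 52, 24 and 0 UMIs and again 0 in each stress mouse. Their fitted log2 differences of -9.72 and -9.36 depend on the prior count and are no bound, and 4 cells of control mice 1 and 2 held 3 or more UMIs of each gene. Fhod3, Cdk14 and Ptpn22 had log2 differences of -3.45, -2.83 and -2.37. All 3 had a higher CPM in tumor cells (41.6, 52.9 and 41.5) than in the other ECs (17.2, 22.5 and 22.7), and the part of tumor RNA in the result was not tested.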

How the results depend on the processing

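The count of genes that differed between stress and control in cluster 18 (87) moved with the processing. It was 466 with no filter on low counts, 135 by DESeq2, 285 with the replicate block, 22 without called doublets, 14 without cells of 3 or more tumor marker UMIs, 19 without both and 38 without both by DESeq2, and it stayed within 1.5 times with RLE normalization, equal cells per mouse and a log2 fold change over 0.15. Leaving out each mouse gave 11 to 185: 27, 185 and 11 without control mice 1, 2 and 3, and 54, 15 and 12 without stress mice 1, 2 and 3. Without the 44 cells, leaving out control mice 1, 2 and 3 gave 6, 83 and 11, leaving out stress mice 1, 2 and 3 gave 17, 6 and 7, and the replicate block gave 69. Of the 30 changed genes named by the rule, 24 lost their call when at least 1 of the 6 mice was left out in turn, and 2 of these lost it in all 6 cases. The interaction count (20) was 12 without doublets and tumor-marker cells, 3 with clusters 2 and 8 as the other ECs and 0 with both changes. It was 0 to 81 without each mouse, with 36, 33 and 0 without control mice 1, 2 and 3, and 29, 9 and 81 without stress mice 1, 2 and 3. At least 2-fold higher genes of cluster 18 numbered 62 in place of 94 without doublets and tumor-marker cells. Against clusters 2 and 8 the ratios of Fn1, Tiam2 and Galntl6 turned to 1.48, 2.06 and 2.38. The cause was not tested in each case. Kit passed the threshold with no filter, by DESeq2, with the replicate block and without control mouse 2. Cdh13 passed by edgeR with no filter (adjusted p = 0.0196) and with the replicate block (0.0297). It also passed without control mouse 2, with the 44 cells (0.0319) and without them (0.0306 by edgeR). With the replicate block and without the 44 cells neither gene passed (edgeR adjusted p = 0.123 for Kit and 0.101 for Cdh13). The Jam2 log2 fold change ranged from -0.04 to 0.50. With the replicate block the share of ECs has the same difference of 0.778 percentage points by construction (exact sign-flip test, p = 0.75). The share difference was -0.803 to 1.90 percentage points and the depth difference 856 to 1803 UMIs without each mouse, where the exact test cannot reach the threshold. No block could be added to the interaction test, where mouse is already a term. Of 34099 listed genes, 8529 passed the filter on low counts and the rest were not tested in cluster 18.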
